A study of Mus musculus with 4 samples.

Results

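Alx4 (ENSMUSG00000040310), the gene for a homeodomain factor of cranial mesenchyme, was described together with 8 other transcription factors of the same tissue, Alx1, Prrx1, Prrx2, Twist1, Twist2, Foxc1, Foxc2 and Msx1. The 9 genes were found by symbol among 27293 genes of the count table, and all 9 were present. They were selected on the counts of these libraries, with the contrast of cKO against WT already known, so their values in that contrast are a description and carry no test. RNA was sequenced from E13 mouse telencephalic tissue (strain C57BL/6, the cerebral cortex in the study's methods) in 4 libraries, 2 labelled WT and 2 labelled cKO with the genotype STINGf/f;Nestin-Cre. In the cKO, Cre recombinase driven from the Nestin promoter, which is active in neural progenitors, deletes a floxed STING gene. STING is the adaptor protein that relays cytosolic DNA sensing. The title of WT 1 ends in wt and that of WT 2 in nes, an abbreviation that is not explained. Whether the 2 WT libraries share a genotype beyond their label is therefore not known. The labels do not say whether the WT embryos carried Cre or floxed alleles, or whether a library came from 1 embryo or several. P-values may therefore measure technical spread only.

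The mesenchyme of the head arises from cranial neural crest and from mesoderm, and its inner layer gives rise to the meninges that wrap the brain. Skull bones form in its outer layers. Homeodomain factors of the Alx, Prrx and Msx families, basic helix-loop-helix factors of the Twist family and forkhead factors of the Foxc family act in these cells, and loss of Alx4, Twist1, Foxc1 or Msx1 is known to disturb the skull vault or the meninges. In the deposited protein domain annotation, 5 of the 9 genes carry a homeobox domain, 2 a helix-loop-helix domain and 2 a forkhead domain. The deposited annotation placed 5 of the 9 (Alx1, Alx4, Prrx2, Twist1 and Foxc2) among 33 genes of embryonic skeletal system morphogenesis, and 5 (Alx1, Alx4, Prrx1, Twist1 and Msx1) among 89 genes of palate development.

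The libraries held between 17209654 and 18533391 counts on genes, so that 3 counts, the limit that a count of 0 allows, were worth between 0.162 and 0.174 CPM, the unit of counts scaled to a common library size. Pairs of values are given in the order of the library numbers, 1 before 2. The targeted gene, listed as Tmem173, had 20 and 19 counts in the libraries labelled WT and 18 and 22 in those labelled cKO (log2 fold change 0.02, standard error 0.45). Its count over the whole gene gave no sign of the deletion, and the deleted part is not given in the sources used here, so WT and cKO stand below for libraries with these labels. All 8 markers of cortical progenitors (summed 1812 to 2061 CPM) and all 7 of cortical neurons (5034 to 5966 CPM) were found, whereas the 9 mesenchyme factors together reached 20.1 to 52.6 CPM. All 20 matrix genes of meninges and mesenchyme were found too, at a summed 602 CPM in WT 1 and 236 to 285 CPM in the other libraries. The name matrix genes is short for a list that also holds genes of other products, such as the chemokine gene Cxcl12. WT 1 also stood apart in choroid plexus markers, of which 9 of 10 were found, all 9 highest in WT 1, with a summed 62.5 CPM in WT 1 and 7.40 to 10.6 CPM elsewhere. The libraries differed in sex, with 0 reads on 4 Y-linked genes in WT 2 and between 1848 and 3002 in the others. In bulk tissue, fewer mesenchymal cells and less RNA per cell cannot be told apart. Because of WT 1, fold changes of the tested factors, of the list medians and of genes called are also given without it. Without WT 1 the WT group is WT 2 alone, so label and sex cannot be told apart there. The same holds for ratios of WT 2 over the cKO libraries.

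Alx4 lies at chromosome 2, 93642384 to 93681339 (plus strand; positions are those of the deposited table and match GRCm38). It had 128 and 76 counts in the WT libraries and 32 and 32 in the cKO libraries. These were 7.44, 4.10, 1.75 and 1.77 CPM. Each WT library was above each cKO library, and the cKO libraries were level. The mean was 5.77 ± 2.36 CPM in WT and 1.76 ± 0.01 CPM in cKO (SD, n = 2 each). The log2 fold change of cKO over WT was -1.69 (standard error 0.39), and without WT 1 it was -1.22 (standard error 0.54). Among the libraries of 1 label, WT 1 exceeded WT 2 1.81-fold (95% exact interval 1.36 to 2.44), and cKO 1 over cKO 2 was 0.992 (0.588 to 1.67). WT 2 alone exceeded the pooled cKO libraries 2.33-fold (1.65 to 3.30). These intervals cover counting error only.

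Its paralog Alx1, at chromosome 10, 102998707 to 103030215 (minus strand), had 4 and 2 counts in the WT libraries and 0 and 2 in the cKO libraries. At this depth no difference was detectable.

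**Figure D1:**
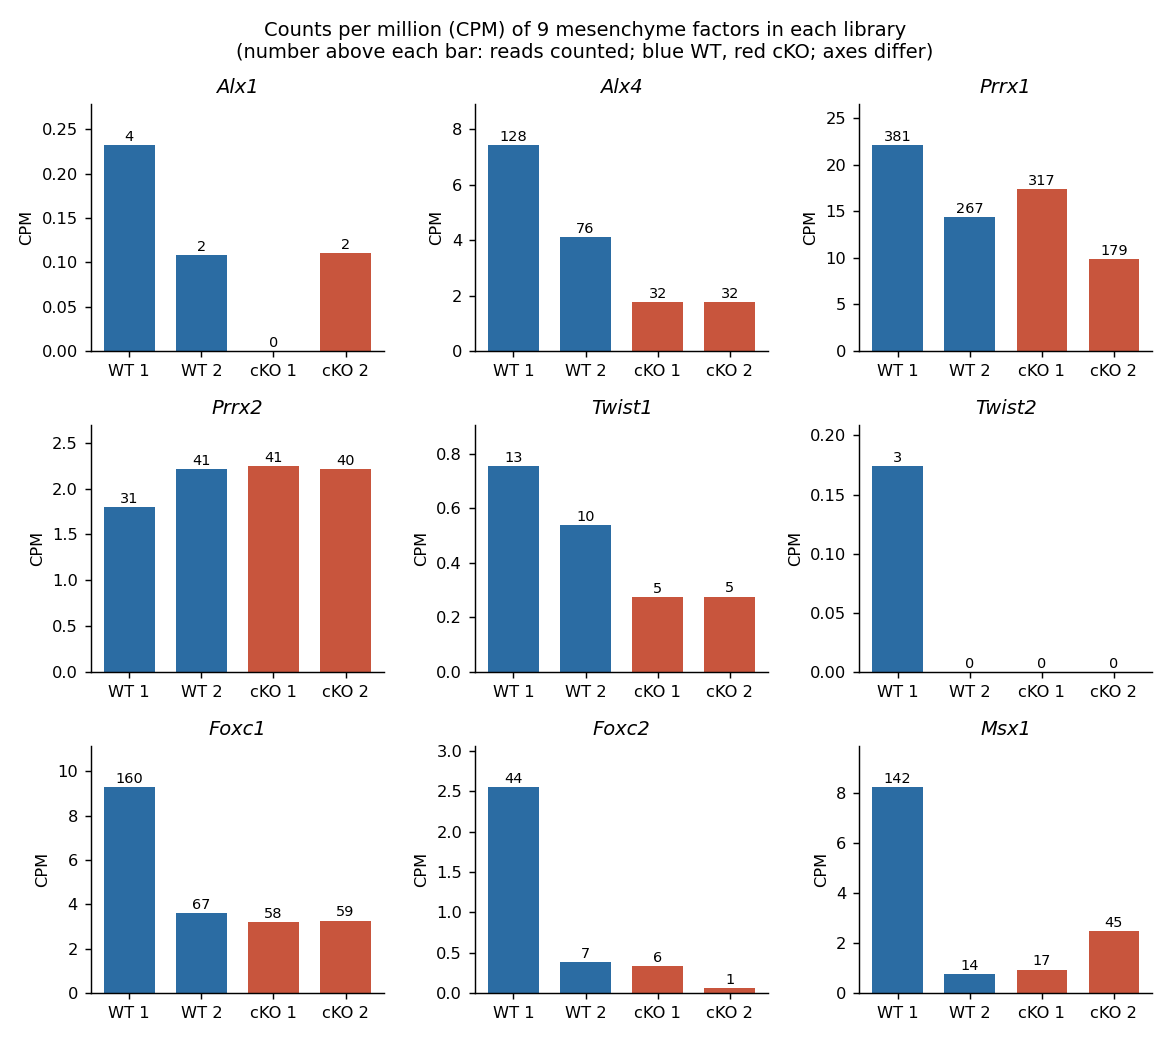
Bars give the counts scaled to library size (CPM) of each of the 9 factors in the 4 libraries, WT in blue and cKO in red, with the number of reads counted above each bar and a separate axis from 0 for each gene. For 8 of the 9 genes the highest bar is WT 1, whereas Prrx2 is highest in cKO 1.

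The paired-related homeobox genes Prrx1 and Prrx2, which act in limb and craniofacial mesenchyme, did not show the pattern of Alx4. Prrx1, at chromosome 1, 163245119 to 163313710 (minus strand), gave the most reads of the 9, with 381 and 267 counts in the WT libraries and 317 and 179 in the cKO libraries. The groups overlapped, since cKO 1 lay above WT 2. In CPM, WT had 18.3 ± 5.47 and cKO 13.6 ± 5.29 (SD, n = 2 each), and the log2 fold change was -0.41 (standard error 0.31), or -0.08 without WT 1. The cKO libraries themselves differed 1.76-fold (1.46 to 2.12). Prrx2, at chromosome 2, 30834972 to 30881251 (plus strand), had 31 and 41 counts in the WT libraries and 41 and 40 in the cKO libraries. It was the flattest of the 9 and the only member lowest in WT 1, and its log2 fold change was 0.16 (standard error 0.37) and 0.01 without WT 1.

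Twist1 and Twist2, basic helix-loop-helix factors that hold mesenchymal cells in an undifferentiated state, were close to the limit of detection. Twist1, at chromosome 12, 33957671 to 33959829 (plus strand), had 13 and 10 counts in the WT libraries and 5 and 5 in the cKO libraries. Its groups did not overlap, but WT 2 over the pooled cKO libraries was 1.96-fold with an interval of 0.732 to 5.25. Twist2, at chromosome 1, 91801461 to 91848028 (plus strand), had 3 counts in WT 1 and 0 in each of the other libraries, and no fold is given. The partners with which Twist proteins pair (Tcf3, Tcf4 and Tcf12) and their inhibitors Id1 to Id4, 7 genes in all, were tested, and none was called in either direction, with a median log2 fold change of -0.08 (-0.06 without WT 1).

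The forkhead genes Foxc1 and Foxc2, the first of them required for the meninges, had each WT library above each cKO library, with most of the difference in WT 1. Foxc1, at chromosome 13, 31806633 to 31812476 (plus strand), had 160 and 67 counts in the WT libraries and 58 and 59 in the cKO libraries. WT 1 stood 2.57-fold above WT 2 (1.92 to 3.47), while WT 2 over the pooled cKO libraries was 1.12-fold (0.819 to 1.53). Its log2 fold change was -0.98 (standard error 0.45) and without WT 1 it was -0.17 (standard error 0.52). Foxc2, at chromosome 8, 121116171 to 121118895 (plus strand), had 44 and 7 counts in the WT libraries and 6 and 1 in the cKO libraries. WT 1 exceeded WT 2 6.77-fold (3.02 to 17.8), and WT 2 over the pooled cKO libraries was 1.96-fold (0.587 to 6.55).

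Msx1, a homeobox gene of skull and tooth mesenchyme at chromosome 5, 37820485 to 37824583 (minus strand), had the widest spread within a label. It had 142 and 14 counts in the WT libraries and 17 and 45 in the cKO libraries. WT 1 exceeded WT 2 10.9-fold (6.30 to 20.5), and WT 2 lay below both cKO libraries. The log2 fold change was -1.37 (standard error 0.92) with all libraries and 1.17 (standard error 0.72) without WT 1, so its direction rested on WT 1. Beside this, the summed choroid plexus markers were 5.91-fold higher in WT 1 than in WT 2 and the matrix genes 2.55-fold; their part in the values of the 9 genes was not tested.

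The promoters of 3 of these genes show the range of sequence at factors with unlike library patterns, Foxc1 (high in WT 1 and level elsewhere), Msx1 (high in WT 1 and lowest in WT 2) and Prrx1 (overlapping groups). Promoters of 6 of the 9 genes were matched by symbol in RefSeq (GRCm38.p6), and Alx1, Alx4 and Foxc2 have no entry. Each line gives the 250 bases before the start of the gene in RefSeq, 5′ to 3′ on the gene's strand, at chr13:31806396-31806645 (plus) for Foxc1, chr5:37824586-37824835 (minus) for Msx1 and chr1:163313651-163313900 (minus) for Prrx1. Capitals mark TAAT on either strand, the core that homeodomains bind, CANNTG, the E-box that Twist proteins bind, and the NF-κB consensus, searched because NF-κB acts downstream of STING.
Foxc1: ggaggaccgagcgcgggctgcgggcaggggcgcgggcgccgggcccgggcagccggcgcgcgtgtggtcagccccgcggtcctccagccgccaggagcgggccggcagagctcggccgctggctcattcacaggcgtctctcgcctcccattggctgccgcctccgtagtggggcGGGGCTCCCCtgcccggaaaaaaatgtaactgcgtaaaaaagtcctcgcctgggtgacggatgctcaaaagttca
Msx1: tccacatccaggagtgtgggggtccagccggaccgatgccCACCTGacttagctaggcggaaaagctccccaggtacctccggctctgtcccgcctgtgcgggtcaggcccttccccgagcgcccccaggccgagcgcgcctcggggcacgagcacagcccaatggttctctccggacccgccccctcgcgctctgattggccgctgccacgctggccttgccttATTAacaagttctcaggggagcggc
Prrx1: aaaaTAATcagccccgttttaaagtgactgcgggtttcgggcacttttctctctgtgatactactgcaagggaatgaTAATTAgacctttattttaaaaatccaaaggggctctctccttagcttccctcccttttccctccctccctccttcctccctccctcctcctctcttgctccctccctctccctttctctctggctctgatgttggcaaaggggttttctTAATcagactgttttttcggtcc

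The capitals in Foxc1 are the NF-κB match, those in Msx1 an E-box and then TAAT on the minus strand, and those in Prrx1 TAAT, with a stretch in the middle where matches on both strands overlap, 4 matches in all. TAAT was found in 3 of the 6 promoters (Twist2, Prrx1 and Msx1) and in 54.9% of 32851 promoters of this length, CANNTG in 1 of 6 (Msx1) and in 66.2%, and the NF-κB consensus in 1 of 6 (Foxc1) and in 5.93%. These are matches of letters and not sites of binding.

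Only 5 of the 9 genes passed the filter on low counts and entered the fit over 16145 genes (Alx4, Prrx1, Prrx2, Foxc1 and Msx1). The median log2 fold change of these 5 was -0.98, and that of all genes tested -0.01. Without WT 1 the median of the 5 was -0.08, so most of it rested on that library. At the study's thresholds, that is a 2-fold change or more with an unadjusted p up to 0.05, 131 genes (0.811%) were called, 108 of them lower in cKO (0.669%) and 23 higher. Of the 9 factors, 1 (Alx4) was called, as lower; 4 did not enter the fit. No gene had an adjusted p under 0.05 from edgeR (quasi-likelihood test, Benjamini-Hochberg), and DESeq2 gave 0 as well. In the edgeR test, 199 of the 16145 genes had an unadjusted p under 0.05. That is a smaller share than the 0.05 that this threshold allows where no gene differs. Without the filter, 65 genes had an adjusted p under 0.05. Each cKO library was below each WT library in 4 of the 9 factors (Alx4, Twist1, Foxc1 and Foxc2), 2 of them among the 5 tested, and in 11.2% of all genes tested. Alx4 was called whichever library was left out, and those of Foxc1 and Prrx1 came near 0 without WT 1.

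**Figure D2:**
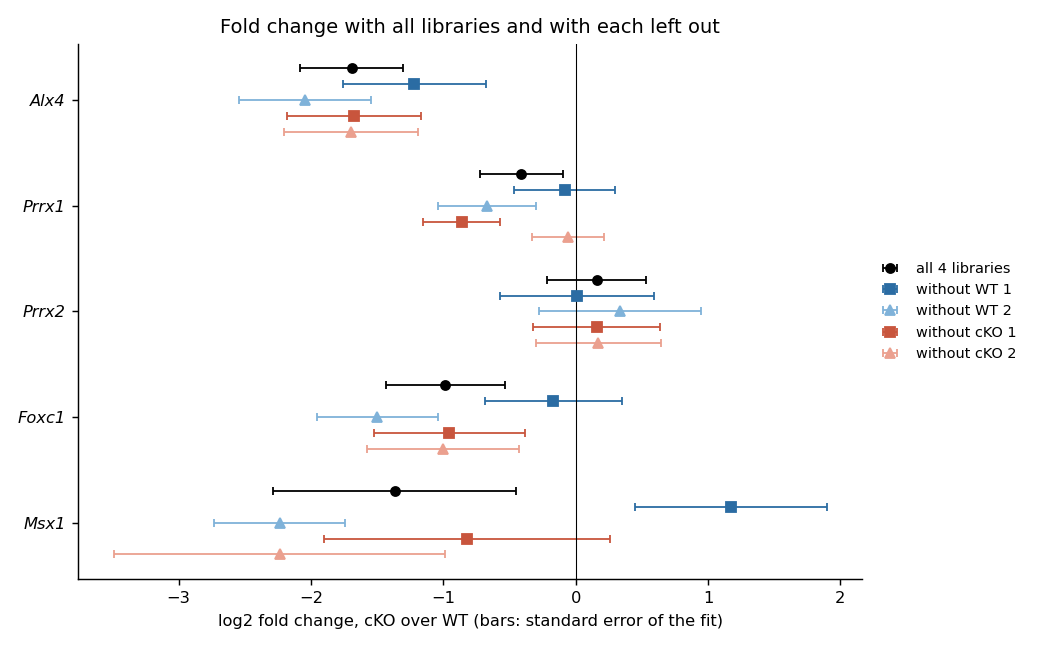
Log2 fold changes of cKO over WT, on the horizontal axis with the standard error of the fit as bars, are plotted for the 5 factors that passed the count filter, with all 4 libraries and with each library left out. The values of Alx4 all lie below -1, whereas Msx1 crosses from -1.37 with all libraries to 1.17 without WT 1.

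Whether Alx4 followed the other factors from library to library was then described in proportions. These would not depend on how much mesenchyme a library held if all factors scaled with it. That condition was not met. Msx1 made up 15.7% and 2.89% of the reads on the 9 factors in the WT libraries and 3.57% and 12.4% in the cKO libraries. The part of mesenchyme amount or composition in the shares was not tested. Reads on the 8 other factors summed to 778 and 408 in the WT libraries and 444 and 331 in the cKO libraries. WT 1 was the high library at 45.2 CPM. The others ran from 18.3 CPM in cKO 2 to 24.3 CPM in cKO 1. Alx4 made up 14.1% of the reads on the 9 factors in WT 1 (95% Clopper-Pearson interval 11.9 to 16.6%) and 15.7% in WT 2 (12.6 to 19.3%). The share was 6.72% in cKO 1 (4.64 to 9.36%), while cKO 2 had 8.82% (6.11 to 12.2%). The intervals of the WT libraries overlapped although their summed reads differed. Both WT shares lay above both cKO shares, but the intervals of WT 1 and cKO 2 overlapped. The mean share was 14.9 ± 1.11% in WT and 7.77 ± 1.48% in cKO (SD, n = 2 each), a ratio of 0.521, and without WT 1 the ratio was 0.495.

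The share was also computed on genes that are not among the 9. Over Alx4 and 24 other mesenchyme transcription factors, it was 11.5% and 10.8% in the WT libraries and 4.90% and 5.21% in the cKO libraries. Over Alx4 and the 20 matrix genes, it was 1.22% and 1.71% in the WT libraries and 0.611% and 0.722% in the cKO libraries. The order of the groups was the same over each set of genes. Because Alx4 was chosen with its decrease known, its lower share in cKO is not a test.

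**Figure D3:**
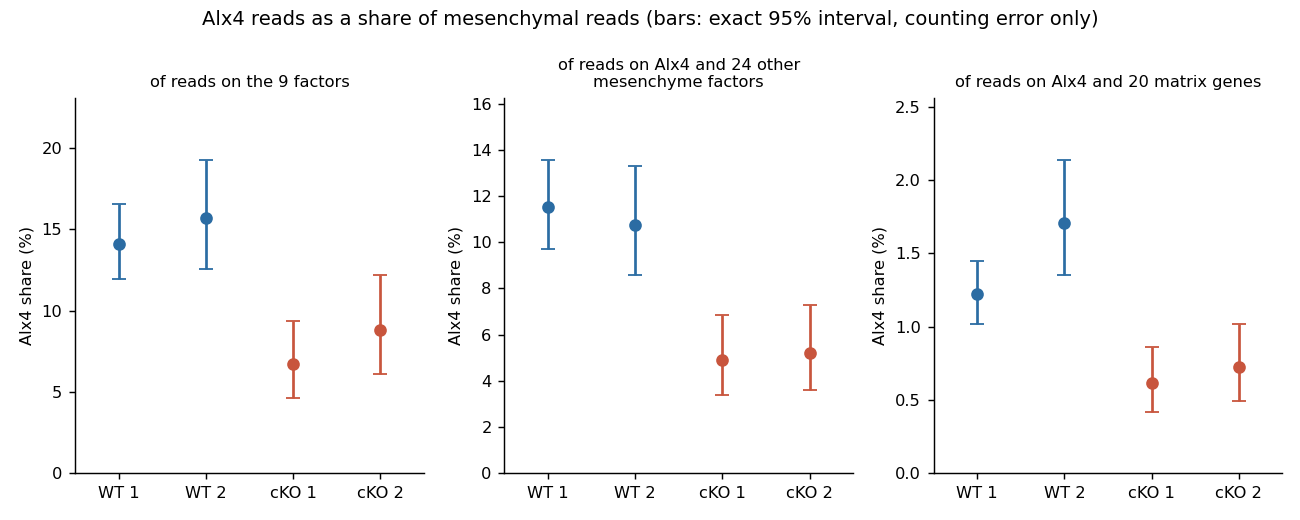
Points give the reads on Alx4 as a percentage of reads on 3 sets of mesenchymal genes in each library, WT in blue and cKO in red, with 95% Clopper-Pearson intervals for counting error. In each panel both WT points lie above both cKO points, from 14.1% and 15.7% against 6.72% and 8.82% in the first.

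Prrx1, the most abundant of the 9, did not order by group. It took 42.1% and 55.2% of the reads in the WT libraries and 66.6% and 49.3% in the cKO libraries, so that WT 2 lay between the cKO libraries.

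Compared per kilobase of exon, so that genes of different length can be set side by side, mean levels in WT ran from Prrx1 (1.65 ± 0.494 CPM per kilobase) over Msx1 (1.45 ± 1.71), Foxc1 (1.10 ± 0.688), Prrx2 (1.02 ± 0.148), Alx4 (0.817 ± 0.334), Foxc2 (0.538 ± 0.565) and Twist1 (0.398 ± 0.0937) down to Alx1 and Twist2 (both under 0.03; SD, n = 2). Neighbours in this order differed by less than their spread except for the step from Twist1 to Alx1. In cKO, Prrx1 (1.23 ± 0.478) and Prrx2 (1.14 ± 0.0134) led, followed by Msx1 (0.552 ± 0.355) and Foxc1 (0.551 ± 0.0098). Alx4 came next at 0.250 ± 0.0014 CPM per kilobase, below Foxc1 by more than the spread of either.

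Against all genes tested, likeness to Alx4 was measured as the root mean square difference of log2(CPM + 0.5), centred per gene, over the 4 libraries. Foxc1 was the most like it of the 4 other tested factors, at rank 66 of 16144 genes (0.363 on the log2 scale), followed by Prrx1 at rank 913 (0.571). Prrx2 (rank 13932, 0.853) and Msx1 (rank 14775, 0.884) were further from it than most genes. The measure counts the size of the steps between libraries as well as their direction. The median difference was 0.712 for these 4 and 0.766 for all genes tested. It was lower for the 13 tested genes of the other mesenchyme factors, at 0.576, with ranks from 32 to 12393. For the 17 tested matrix genes it was 0.606, with ranks from 82 to 15055. The 10 genes nearest to Alx4 were Wisp1, Lrrc17, Dkk2, Pf4, the pseudogene Gm18180, Lama2, Il13ra1, Dapk2, Fmo1 and Cdh3, at differences of 0.129 to 0.246. Wisp1, the nearest, had 35 and 18 counts in the WT libraries and 7 and 4 in the cKO libraries. With 4 libraries and counts of this size, many genes can share such an order, and 7 of the 10 had fewer than 10 counts in some library.

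**Figure D4:**
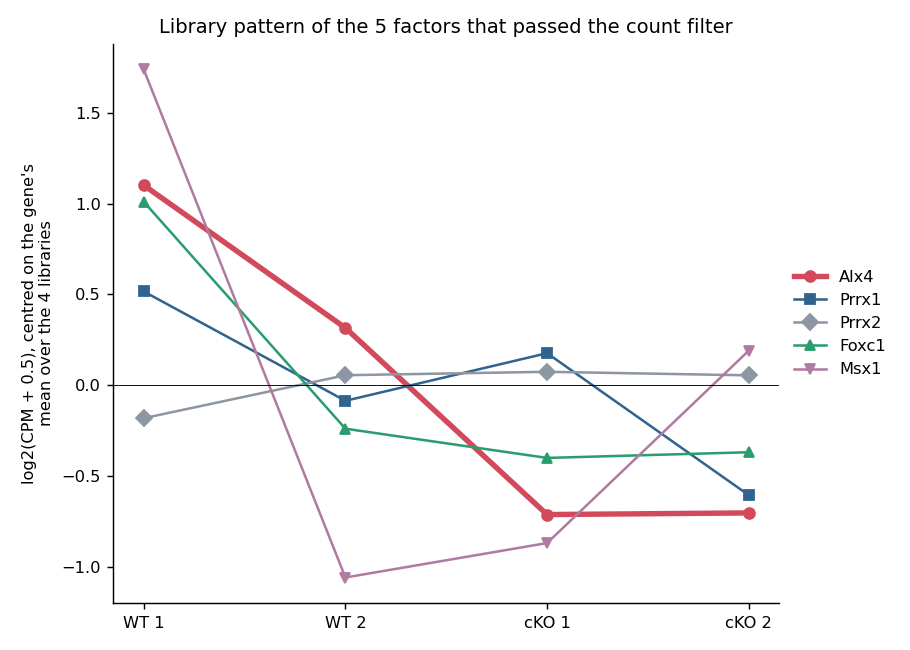
Lines join the centred log2(CPM + 0.5) of the 5 tested factors over the 4 libraries, with 0 at each gene's own mean. Alx4 steps down from WT 1 (1.10) to WT 2 (0.32) and again to both cKO libraries (-0.71 and -0.70), Foxc1 steps down once after WT 1, and Prrx2 stays near 0.

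Of a list of 28 other mesenchyme transcription factors, 24 were found and 13 were tested. Of these, 1 was called lower in cKO and none higher, beside 0.669% of all genes called lower, and the median log2 fold change was -0.73, or 0.02 without WT 1. The gene called was Snai1, for a zinc finger factor of the epithelial to mesenchymal transition, and it was not called without WT 1. Snai1 had 29 and 17 counts in the WT libraries and 9 and 9 in the cKO libraries, with a log2 fold change of -1.36 (standard error 0.54) and of -0.88 without WT 1. Its rank of likeness to Alx4 was 32 of 16144 genes. The factors of the list with the most reads, Eya1, Eya2, Foxf2 and Hic1, were not called. Eya1 had 155 and 141 counts in the WT libraries against 220 and 101, and Eya2 had 146 and 90 against 98 and 119. Foxf2 had 127 and 159 counts in the WT libraries against 98 and 129, and Hic1 had 142 and 96 against 63 and 83. Each cKO library was below each WT library in CPM in 3 of the 13 tested (Snai1, Foxf2 and Hic1), and in 11.2% of all genes tested. Of the 24 genes, 18 had their highest CPM in WT 1.

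Matrix genes of the meninges and mesenchyme, active in the cells in which these factors act, were tested for 17 of 20. Of these, 3 were called lower in cKO and 0 higher, beside 0.669% of all genes called lower. They were the collagen genes Col1a1 and Col1a2 and the collagen-binding Aebp1. Fbln1 and Cxcl12, which had the highest mean CPM of the list, were not called (log2 fold changes 0.21 and -0.36). Col1a1 had 1160 and 179 counts in the WT libraries and 221 and 106 in the cKO libraries. Col1a2 had 1303 and 230 counts in the WT libraries and 341 and 184 in the cKO libraries. Aebp1 had 261 and 45 counts in the WT libraries against 51 and 34. In all 3 genes WT 2 lay between the cKO libraries. The log2 fold changes of Col1a1, Col1a2 and Aebp1 were -2.08, -1.59 and -1.89, and became -0.11, 0.21 and -0.06 without WT 1, so that of Col1a2 turned its direction. The median of the 17 was -0.74 and 0.21 without WT 1, when none of them was called. Of the 20 genes, 18 were highest in WT 1.

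WT 2 and the cKO libraries were then set against each other for the tested genes among the 9 factors and the matrix. WT 2 was at least 2-fold above the pooled cKO libraries in 1 of the 5 tested factors (Alx4) and in none of the 17 matrix genes tested, and in 1.05% of all genes tested. Some genes lay close to this cut. The highest ratio among the 17 was 1.86, and Twist1 and Foxc2, which were not tested, were each at 1.96. The median ratio was 1.06 for the 5 and 0.859 for the 17, with 0.997 for all genes tested. The median ratio of WT 1 over WT 2 was 1.81 for the 5 and 2.94 for the 17, with 1.02 for all genes tested. These ratios of single libraries have no replicate check, and WT 2 differed in sex from WT 1 and from the cKO libraries.

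**Figure D5:**
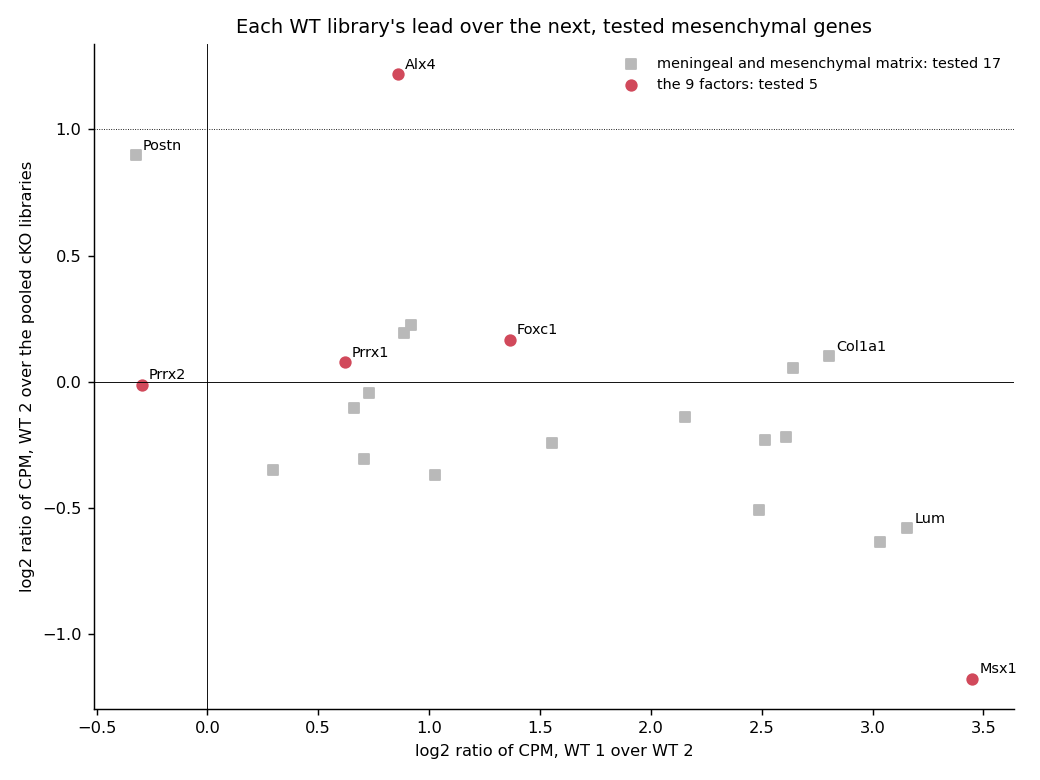
Each point is a tested gene, with the log2 ratio of CPM in WT 1 over WT 2 on the horizontal axis and in WT 2 over the pooled cKO libraries on the vertical axis, for 5 of the 9 factors and 17 matrix genes. Alx4 lies above the dotted line of a 2-fold difference, and Msx1 lies at the lower right, high in WT 1 and lower in WT 2 than in cKO.

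Around Alx4, 11 genes of the table lie within 300 kb, of which 6 were tested and none was called, with log2 fold changes from -0.62 (Cd82) to -0.03 (Alkbh3). Ext2, on the minus strand from 93661028 to 93822568, overlaps the span of Alx4 and had 1029 and 1120 counts in the WT libraries and 991 and 1125 in the cKO libraries. It was level across libraries and shares 0 of the 7060 exon bases of Alx4 (GENCODE M21). Whether reads were counted by strand is not given in the sources used here. None of the tested neighbours of the other 8 genes was called either.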

How the data were processed

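Gene counts from 4 RNA-seq libraries of telencephalic tissue (E13, mouse) were analysed, 2 labelled WT and 2 labelled cKO, grouped by the genotype labels. The authors deposited raw counts of reads per gene for the 4 libraries (17209654 to 18533391 per library, so 3 counts are 0.162 to 0.174 CPM), made per the submitters' processing notes with Bowtie2 2.2.3, TopHat2 2.0.12 and HTSeq 0.6.0. These notes name mm9, but 97.2% of 27232 genes match GENCODE M21 (GRCm38) in start or end within 1 base, so positions were read as GRCm38. Of 27304 rows, 11 blank ones (0.0403%) were left out. The authors' columns of fold changes, p-values and mean normalized values, and a second table holding 1 library per group, were not used.

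The test was edgeR's (version 4.0.16, R 4.3.3; TMM, filterByExpr with a minimum count of 10, quasi-likelihood test, no covariate, Benjamini-Hochberg adjustment over 16145 genes), and genes were called at the study's thresholds, a 2-fold change or more with an unadjusted p up to 0.05. DESeq2 1.42.0 was an alternative. Other alternatives were RLE size factors, library totals, no filter, at least 10 counts in every library, a replicate block, a pseudocount of 1 and leaving out each library. Intervals are exact Clopper-Pearson (scipy 1.17.1) and cover counting error only. On simulated counts for cKO against WT, 199 of 200 genes changed 4-fold were called, together with 215 unchanged genes, among 16191 genes fitted. These 215 are more than the 131 genes called in the data. The changed genes were drawn from those with a mean of at least 2 CPM, a level that Alx1, Twist1, Twist2 and Foxc2 did not reach. Alx4 changed less, 3.23-fold, so the recovery does not describe these genes. CPM per kilobase used GENCODE M21 exon lengths.

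The 9 genes and all lists were chosen with earlier results of these data known, and 1 gene each of the lists of other mesenchyme factors and of neural crest markers is not reported here, so these lists are incomplete. Genes named are the 9, members of the lists that were called or are among the 4 with the highest mean CPM of their list, and the 10 genes nearest to Alx4. Cd82, Alkbh3, Ext2, and the neural crest genes Sox10, Foxd3, Erbb3, Tfap2a and Tfap2b, were named after their values were seen.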

Additional observations from a re-analysis of the deposited data

How the results depend on the processing

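At the study's thresholds, 131 genes were called. The count was 405 with no filter, 72 where each library had to hold 10 counts or more, 82 with DESeq2, 208 with a replicate block and 100 to 517 with 1 library left out (383 without WT 2, 517 without cKO 1). Without WT 1, 48.0% of 100 calls were lower in cKO, against 82.4% with all libraries. Genes with an adjusted p under 0.05, 0 with all libraries, numbered 65 with no filter, 5 with a replicate block and 0 to 80 with 1 library left out (7 without WT 1, 80 without WT 2). Of the 9 factors, 1 was called lower, beside 108 of 16145 genes tested. With no filter 3 were (Alx4, Foxc2 and Msx1), beside 333 of 27293 genes. DESeq2 called 2 lower (Alx4 and Foxc2), beside 72 of 27293 genes. The count of factors also rose without WT 2. Alx4 was called under every alternative run. Of the other mesenchyme factors, 1 was called lower, and 5 with no filter. Where each library had to hold 10 counts or more, 0 were, beside 59 of 14939 genes. With a replicate block 3 were, beside 176 of 16145 genes. With 1 library left out this count rose or fell, depending on the library. Of the 10 genes nearest to Alx4, 3 had at least 10 counts in every library. The direction of Msx1 turned without WT 1, to a log2 fold change of 1.17. The same replicate numbers occur in WT and cKO, but with 2 pairs, a correlation of 0.108 between the deviations and no label that ties them, they were taken as numbers only. A fit without a library assumes that the lone library of its group varies like the other group. The causes of these differences were not tested beyond the number of genes or libraries each setting removes. There were 2 libraries per label, and Alx1 and Twist2 had at most 4 counts in any of them. Twist1 had 5 to 13 counts per library. Foxc2 had 44 counts in WT 1 and 1 to 7 in the others.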

Other observations

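Markers of neural crest and Schwann lineage, from which part of the cranial mesenchyme descends, had no common order of libraries. Sox10, the factor of neural crest and glial progenitors, had 23 and 52 counts in the WT libraries and 21 and 26 in the cKO libraries. Erbb3, the neuregulin receptor of the same lineage, had 7 and 33 counts in the WT libraries and 0 and 13 in the cKO libraries, and Foxd3 had 0, 12, 0 and 1. These 3 were picked after their values were seen, and WT 2 was their highest library. The other 3 genes reported of the list went different ways. Ets1, the most abundant, had 397 and 346 counts in the WT libraries and 360 and 269 in the cKO libraries, highest in WT 1. Tfap2b was highest in cKO 1, with 23 counts, and Tfap2a in WT 2, with 14 counts. None of the 3 tested genes of this list was called with all libraries, and Erbb3 was called lower without WT 1.

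Vessel and blood markers showed a smaller excess in WT 1 than the choroid plexus and matrix genes did. The 10 endothelial markers summed to 250 CPM in WT 1 and 165 to 188 CPM elsewhere, and none was called. The 8 pericyte and mural markers summed to 279 CPM in WT 1 and 203 to 226 CPM elsewhere, and 1 of them, the smooth muscle actin gene Acta2, was called lower in cKO, with 59 and 14 counts in the WT libraries and 12 and 11 in the cKO libraries. Its log2 fold change was -1.69, and -0.26 without WT 1, when it was not called. The 9 blood genes summed to 1093 CPM in WT 1 and 475 to 715 CPM elsewhere, with none called. All 4 choroid plexus markers tested were called lower in cKO (Aqp1, Otx2, Htr2c and Kcne2), beside 0.669% of all genes tested, and none of them without WT 1. Their log2 fold changes were -2.66, -1.33, -3.44 and -3.33 in this order, and without WT 1 -0.66, -0.31, -1.66 and 1.24, so that of Kcne2 turned its direction. Otx2 had 358 and 124 counts in the WT libraries and 71 and 125 in the cKO libraries, so that WT 2 and cKO 2 were level. No gene was called among the lists of cartilage and bone, surface ectoderm, skeletal muscle, microglia, cortical progenitors and cortical neurons. Few genes of the first lists entered the fit, with 2 of 8 tested for cartilage and bone and 1 of 8 for surface ectoderm. For skeletal muscle, 3 of the 6 genes found were tested. The lack of calls therefore says little about these lists.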
